A study of Mus musculus with 18 samples.

Results

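Basement membrane and extracellular matrix genes code for the collagens, laminins, fibulins, proteoglycans and matrix enzymes that cells lay down around themselves. A set of 48 such genes was followed in mouse cumulus cells. They were chosen by name, and each was read through the probe sets whose platform annotation gives exactly 1 gene symbol. Of the 48 genes, 46 had such a probe set, 101 probe sets in all, among 18193 genes with a probe set in the series. Fbn1 had none listed, and those of Loxl2 carry a second symbol. Of the 46, 39 were bright enough to be tested, among 12252 tested genes. The 48 fall into 15 basement membrane genes, 9 interstitial collagens, 11 elastic fibre genes, 4 proteoglycans, 4 adhesive and matricellular genes, and 5 genes of matrix turnover.

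The study asked how oocytes and estrogen act together on the transcripts of mouse cumulus cells, the granulosa cells around the oocyte in antral follicles. RNA was measured on 18 arrays in 6 groups of 3. The groups were intact cumulus-oocyte complexes (COC), complexes whose oocyte had been removed (OOX, called oocyte-free below), and oocyte-free complexes cultured with oocytes (cocultures), each without and with estrogen (E2). All were cultured, and the strain, the age, the estrogen dose and the culture time are not given in the sources used here. Whether the 3 samples of each group are separate animals or cultures is not stated, so the p-values speak for the spread among these samples, which may be technical. Values are given in the order of the title numbers. These are 1, 7 and 13 for intact complexes, 2A, 8 and 14 for oocyte-free complexes and 3, 9 and 15 for cocultures. With estrogen they are 4, 10 and 16, then 5, 11 and 17, then 6, 12 and 18.

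Sample 5 is titled as oocyte-free with estrogen, while its source name and treatment label name no estrogen. The title was followed. Over the tested genes its highest correlation was 0.9802, with an array of its titled group, against 0.9480 with an oocyte-free array without estrogen. Sample 14 stood apart, with a highest correlation of 0.9438 to its own group, where the other 17 arrays reached 0.9696 to 0.9910. The array names form 3 series of 13, 2 and 3 arrays, and none of the oocyte-free arrays without estrogen lies in the first. Array series and oocyte removal without estrogen can therefore not be compared within a series. The estrogen comparison of intact complexes lies wholly within the first. Samples 5 and 11 lie there too, so the correlations of sample 5 cannot tell its title from array series. Sample 17, the array of its titled group in another series, reached 0.9696 with that group. Its highest value with an oocyte-free array without estrogen was 0.9683.

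A basement membrane is a thin sheet in which a laminin network and a type IV collagen network are joined by nidogens and by heparan sulphate proteoglycans such as perlecan and agrin. In the ovary such a sheet surrounds the follicle outside the mural granulosa cells, and granulosa cells make some of its parts. Fibrillar collagens, the beaded filaments of collagen VI, elastic fibres and small proteoglycans make up the interstitial matrix. It is remodelled by matrix metalloproteinases, which are held in check by tissue inhibitors (TIMPs).

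Removing the oocyte moved a large share of the matrix genes, and adding oocytes moved them back. Without estrogen, 25 of the 39 tested genes changed on oocyte removal, 16 up and 9 down, where 38.7% of all tested genes changed (18.0% up and 20.7% down). Adding oocytes to oocyte-free complexes changed 26, 12 up and 14 down (all genes 33.2%, 19.8% up and 13.4% down), and 23 of the 25 moved in the direction opposite to removal. With estrogen, removal changed 24, 16 up and 8 down (all genes 30.2%, 12.9% up and 17.3% down), and added oocytes changed 25, 7 up and 18 down (all genes 24.6%, 14.2% up and 10.4% down), with 23 of the 24 turned. Removal followed by the opposite call with added oocytes was seen in 29.5% of all tested genes without estrogen and 22.6% with it. Dcn and Mamdc2 passed the brightness filter through the oocyte-free arrays alone, Loxl1 through the samples with oocytes and Col4a2 through those without estrogen, so a difference was built into their choice and they count among the 39. Removal and addition share the oocyte-free arrays, so that the turn is no independent result. Here a gene rose or fell where its Benjamini-Hochberg adjusted p from limma was under 0.05 over all tested genes. Each log2 change is given with its standard error from the fit of all 18 arrays. The median absolute log2 change of the 39 genes on removal was 1.00 without estrogen and 0.96 with it, against 0.39 and 0.32 over all tested genes. Granulosa and cumulus markers moved in the same comparison, with a mean log2 level of 8.41 to 8.54 in oocyte-free samples and 10.18 to 10.29 in intact ones, and their part in the result was not tested. From these RNA values, fewer cells of a type and less RNA per cell cannot be told apart.

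The removal comparisons without and with estrogen rest on different arrays. Of the 39 genes, 12 rose in both (Col4a5, Lamb2, Col5a2, Fbn2, Fbln2, Dcn, Fn1, Sparc, Mamdc2, Mmp2, Mmp14 and Timp2). A further 6 fell in both (Lama1, Col6a1, Col6a2, Fbln5, Mfap2 and Loxl1), and 0 changed in opposite directions. Of all tested genes 9.5% rose in both, 13% fell in both and 0.286% changed in opposite directions. The 2 sets of log2 changes had the same sign for 33 of the 39 genes, with a Pearson r of 0.834 and a Spearman rho of 0.763, next to an r of 0.813 over all tested genes. Genes are not independent replicates, so these values describe the pattern only. Dcn and Mamdc2 passed the brightness filter through both oocyte-free groups alone, and Loxl1 through the groups with oocytes. For these genes the agreement was in part built in by the filter. Within the first array series, removal with estrogen changed 26 of the 39 genes. The oocyte-free group with estrogen then held samples 5 and 11 only, and the label of sample 5 is in doubt. The share of all tested genes in that run is not given here, so the count describes the setting only.

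**Figure D1:**
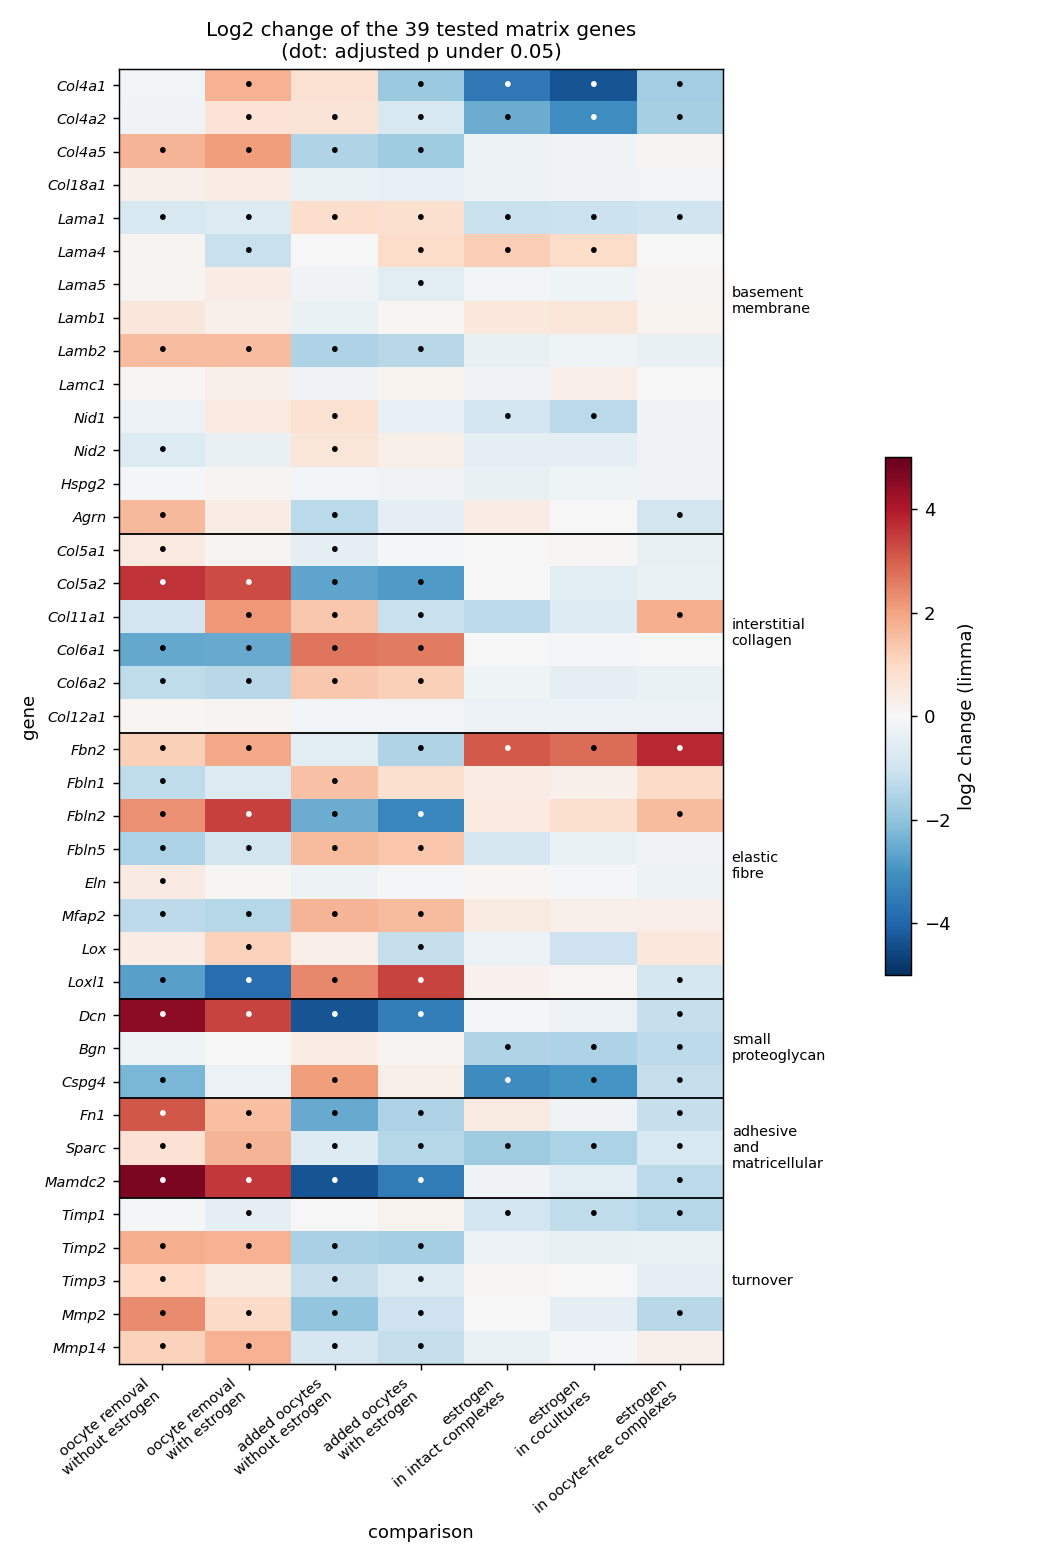
Log2 change (colour) of the 39 tested matrix genes (lines, grouped by class) in 7 comparisons (columns), with a dot where the adjusted p was under 0.05. The columns for oocyte removal and for added oocytes carry opposite colours for most genes, and the estrogen columns hold 10 dots for intact complexes, 16 for oocyte-free complexes and 10 for cocultures, most of them on genes that fell.

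Of 14 tested basement membrane genes, 3 rose and 2 fell on removal without estrogen, 35.7% against 38.7% of all tested genes. With estrogen 4 rose and 2 fell, 42.9% against 30.2%. Their median absolute log2 change without estrogen was 0.27, next to 0.39 over all genes. Col4a5 (1425476_at), which codes for the alpha 5 chain of type IV collagen, had log2 values of 6.00, 6.44 and 5.57 in intact complexes, 8.17, 7.67 and 7.30 in oocyte-free complexes and 6.04, 6.17 and 6.47 in cocultures. With estrogen it stood at 5.26, 6.32 and 5.70 in intact complexes, 7.26, 7.63 and 8.62 in oocyte-free complexes and 5.45, 6.35 and 6.40 in cocultures. The oocyte-free samples lay above all others in both cases. Col4a5 rose by 1.71 ± 0.355 (adjusted p = 0.000966) on removal without estrogen and by 2.08 ± 0.355 (adjusted p = 0.000224) with it. The first was 1.03 (adjusted p = 0.104) once array series was a term in the fit, and the second was 1.69 (adjusted p = 0.00177) within the first series. Lamb2 (1416513_at), the laminin beta 2 chain, showed the same order. Its values were 6.84, 7.39 and 6.76 in intact complexes, 8.92, 8.60 and 8.06 in oocyte-free complexes and 7.35, 6.51 and 7.10 in cocultures, and with estrogen 6.85, 6.45 and 6.60 in intact complexes, 8.05, 7.79 and 8.64 in oocyte-free complexes and 6.84, 6.48 and 6.98 in cocultures. The oocyte-free samples were again the highest, with no overlap. Lamb2 rose by 1.53 ± 0.268 (adjusted p = 0.000213) and by 1.53 ± 0.268 (adjusted p = 0.000285), respectively.

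Agrn (1426670_at), which codes for agrin, a heparan sulphate proteoglycan that binds laminin, read 6.91, 6.96 and 7.20 in intact complexes, 8.65, 8.69 and 8.61 in oocyte-free complexes and 7.58, 7.02 and 7.28 in cocultures. Values with estrogen were 7.47, 7.69 and 6.99 in intact complexes, 7.55, 7.50 and 8.21 in oocyte-free complexes and 7.32, 7.35 and 7.23 in cocultures. The oocyte-free samples stood clear of the rest without estrogen, and overlapped the intact ones with it. Agrn rose by 1.63 ± 0.202 (adjusted p = 6.57e-06) on removal without estrogen, and the change with estrogen was 0.37 ± 0.202 (adjusted p = 0.188). Lama1, the laminin alpha 1 chain, fell by 0.79 ± 0.181 (adjusted p = 0.00207) without and by 0.70 ± 0.181 (adjusted p = 0.00694) with estrogen, the first being -0.48 (adjusted p = 0.176) with array series as a term. Nid2, coding for the laminin binding protein nidogen 2, fell by 0.67 ± 0.163 (adjusted p = 0.00318) on removal without estrogen, and the change with estrogen was -0.38 ± 0.163 (adjusted p = 0.0917). The chains Lamb1 and Lamc1, Col18a1 and perlecan (Hspg2) did not pass in any comparison of 2 groups at the probe set used. A dimmer probe set of Hspg2 did rise on removal, by 0.91 ± 0.158 without estrogen and 0.62 ± 0.158 with it (adjusted p = 0.000275 and 0.00727), so that its probe sets disagree. One of Lamc1 rose by 1.06 ± 0.262 on removal without estrogen (adjusted p = 0.00451) and fell by 0.86 ± 0.262 with added oocytes (adjusted p = 0.0195), and the probe sets of Lamc1 disagree likewise.

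Col4a1 and Col4a2, coding for the alpha 1 and alpha 2 chains that form the common type IV collagen molecule, had larger changes with estrogen in intact complexes than on oocyte removal. They are neighbours on chromosome 8 with no other protein-coding gene between them and are read in opposite directions from starts 21 bases apart. The stretch is shown because both genes moved together. It is given from RefSeq on the + strand of GRCm38.p6, chr8:11312801-11312830, with the first base of each gene in capitals, that of Col4a2, read rightwards, on the left and that of Col4a1, read leftwards, on the right.
Col4a1 and Col4a2: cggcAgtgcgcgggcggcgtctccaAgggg

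Col4a1 (1452035_at) had log2 values of 8.79, 8.48 and 8.68 in intact complexes, 8.51, 8.52 and 8.57 in oocyte-free complexes and 9.96, 8.25 and 9.63 in cocultures without estrogen. Under estrogen it stood at 4.56, 5.30 and 5.35 in intact complexes, 6.76, 6.62 and 7.05 in oocyte-free complexes and 5.24, 4.74 and 4.86 in cocultures. All 9 samples with estrogen lay below all 9 without it, and with estrogen the oocyte-free samples were the highest. Intact complexes and cocultures with estrogen lay below the array median, so no fold is given. It fell by 3.58 ± 0.317 (adjusted p = 1.3e-06) with estrogen in intact complexes, by 4.33 ± 0.317 (adjusted p = 2.64e-07) in cocultures and by 1.72 ± 0.317 (adjusted p = 0.00231) in oocyte-free complexes. On oocyte removal Col4a1 rose by 1.74 ± 0.317 (adjusted p = 0.000407) with estrogen, and the change without it was -0.12 ± 0.317 (adjusted p = 0.804). Col4a2 (1424051_at) had values of 6.82, 6.88 and 6.68 in intact complexes, 6.42, 6.70 and 6.79 in oocyte-free complexes and 7.83, 6.56 and 7.49 in cocultures. With estrogen it read 4.23, 4.46 and 4.22 in intact complexes, 5.08, 4.63 and 5.26 in oocyte-free complexes and 4.06, 4.12 and 4.35 in cocultures. The order of the groups was that of Col4a1, with no overlap between samples with and without estrogen. It passed the brightness filter through the 9 samples without estrogen, and the 9 with it lay below the array median. Col4a2 fell by 2.49 ± 0.243 (adjusted p = 3.71e-06) in intact complexes, by 3.12 ± 0.243 (adjusted p = 5.25e-07) in cocultures and by 1.65 ± 0.243 (adjusted p = 0.000352) in oocyte-free ones. Its change on removal with estrogen was smaller, 0.69 ± 0.243 (adjusted p = 0.0407), and did not pass without any 1 of samples 4, 5, 10, 16 and 17 (0.55 to 0.77, adjusted p from 0.0527 to 0.155). A second probe set of Col4a1 gave -1.46 ± 0.216 for estrogen in intact complexes (adjusted p = 0.000448).

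Other basement membrane genes moved with estrogen as well. Lama1 fell by 1.10 ± 0.181 (adjusted p = 0.000844) in intact complexes, by 1.06 ± 0.181 (adjusted p = 0.0013) in cocultures and by 1.00 ± 0.181 (adjusted p = 0.00204) in oocyte-free complexes. Nid1, coding for nidogen 1, fell by 0.96 ± 0.205 (adjusted p = 0.00802) in intact complexes and by 1.35 ± 0.205 (adjusted p = 0.000418) in cocultures, while its value in oocyte-free complexes was -0.19 ± 0.205 (adjusted p = 0.578). Lama4, the laminin alpha 4 chain, went the other way. Its values were 5.55, 5.90 and 5.55 in intact complexes, 5.78, 5.71 and 5.90 in oocyte-free complexes and 5.84, 5.63 and 5.94 in cocultures, and with estrogen 7.10, 6.83 and 6.80 in intact complexes, 5.67, 5.85 and 5.88 in oocyte-free complexes and 6.63, 6.45 and 7.10 in cocultures. Only the samples with both estrogen and an oocyte stood high, and they overlapped with none of the rest. Lama4 rose by 1.24 ± 0.168 (adjusted p = 0.00013) with estrogen in intact complexes and rose by 0.92 ± 0.168 (adjusted p = 0.00224) in cocultures, and fell by 1.11 ± 0.168 (adjusted p = 6.74e-05) on oocyte removal with estrogen.

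The 3 classical fibril genes Col1a1, Col1a2 and Col3a1 lay below the array median in all 18 samples and were not tested. Of the 6 tested interstitial collagens, 2 rose and 2 fell on removal, without and with estrogen alike, 66.7% against 38.7% and 30.2% of all genes. Col5a2 (1422437_at), coding for the alpha 2 chain of collagen V, a minor fibril collagen that limits fibril width, had values of 5.54, 6.11 and 5.82 in intact complexes, 9.02, 9.06 and 10.19 in oocyte-free complexes and 6.94, 6.93 and 6.49 in cocultures. Values with estrogen were 5.82, 5.80 and 5.89 in intact complexes, 9.08, 9.12 and 9.09 in oocyte-free complexes and 6.53, 5.95 and 6.35 in cocultures. Every oocyte-free sample lay above every other sample, and sample 14 was the highest. Col5a2 rose by 3.60 ± 0.251 (adjusted p = 7.75e-09) on removal without estrogen, 12.1-fold, and by 3.26 ± 0.251 (adjusted p = 3.34e-08) with it. For its partner chain Col5a1 the change without estrogen was 0.47 ± 0.136 (adjusted p = 0.0115) at the brightest probe set, a call that was lost without sample 7 or 8 (0.35 and 0.36, adjusted p = 0.0737 and 0.0664) and with array series as a term (0.41, adjusted p = 0.147). The probe sets of Col5a1 disagree, since a second one rose by 2.14 ± 0.263 (adjusted p = 8.5e-06) and another gave -0.09 ± 0.142 (adjusted p = 0.654).

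Collagen VI forms beaded filaments near cells from 3 chains, of which the alpha 1 and alpha 2 chains are members here. Both genes were lower in every oocyte-free sample than in every sample with oocytes. Col6a1 (1448590_at) read 8.50, 8.93 and 8.40 in intact complexes, 5.51, 5.85 and 6.80 in oocyte-free complexes and 9.35, 8.14 and 8.66 in cocultures. Under estrogen it stood at 8.84, 8.58 and 8.36 in intact complexes, 6.42, 6.13 and 5.68 in oocyte-free complexes and 8.90, 8.50 and 8.56 in cocultures. Col6a1 fell by 2.56 ± 0.314 (adjusted p = 5.66e-06) on removal without estrogen, 5.88-fold, and fell by 2.52 ± 0.314 (adjusted p = 8.41e-06) with it, and it rose by 2.66 ± 0.314 (adjusted p = 4.44e-06) and rose by 2.58 ± 0.314 (adjusted p = 8.7e-06) with added oocytes. Col6a2 (1452250_a_at) read 7.25, 8.02 and 7.33 in intact complexes, 6.29, 6.09 and 6.38 in oocyte-free complexes and 7.94, 7.40 and 7.43 in cocultures. With estrogen it read 7.47, 7.26 and 7.18 in intact complexes, 5.54, 6.06 and 6.20 in oocyte-free complexes and 7.67, 6.96 and 6.70 in cocultures. Col6a2 fell by 1.28 ± 0.253 (adjusted p = 0.00063) and by 1.37 ± 0.253 (adjusted p = 0.000456) on removal, and a second probe set gave -0.60 ± 0.236 and -0.52 ± 0.236, which did not pass (adjusted p = 0.0598 and 0.119). Estrogen left both without a call in any culture.

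Col6a1 and Col6a2 are neighbours on chromosome 10 with no protein-coding gene between them. Because they moved together, the 250 bases before each start are shown from RefSeq (GRCm38.p6, - strand, chr10:76726045-76726294 for Col6a1 and chr10:76623631-76623880 for Col6a2). Capitals mark matches on either strand to the motifs searched, TGAGTCA (the AP-1 site, here TGACTCA) and GGGCGG (a GC box, here CCGCCC). The 2 stretches share no marked motif.
Col6a1: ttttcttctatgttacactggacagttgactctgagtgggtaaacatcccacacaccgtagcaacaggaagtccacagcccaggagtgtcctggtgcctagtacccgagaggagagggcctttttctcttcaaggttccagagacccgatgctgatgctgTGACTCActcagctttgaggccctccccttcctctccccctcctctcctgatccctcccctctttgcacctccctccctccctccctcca
Col6a2: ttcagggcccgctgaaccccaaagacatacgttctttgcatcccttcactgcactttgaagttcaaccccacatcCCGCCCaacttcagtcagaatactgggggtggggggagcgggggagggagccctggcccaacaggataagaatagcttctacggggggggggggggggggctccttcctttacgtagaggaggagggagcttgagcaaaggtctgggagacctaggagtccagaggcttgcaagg

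Col11a1 (1418599_at), coding for the alpha 1 chain of collagen XI, a minor fibril collagen best known from cartilage, behaved unlike any of these. Its values were 8.79, 8.95 and 9.02 in intact complexes, 7.55, 7.57 and 8.80 in oocyte-free complexes and 9.81, 8.92 and 9.25 in cocultures. The values with estrogen were 7.65, 7.38 and 7.81 in intact complexes, 10.34, 10.35 and 8.68 in oocyte-free complexes and 8.44, 8.88 and 8.71 in cocultures. Samples 5 and 11 were the highest of all 18, while sample 17 of the same group lay among the samples with oocytes. Col11a1 rose by 2.18 ± 0.382 (adjusted p = 0.000288) on removal with estrogen, where the change without estrogen was -0.95 ± 0.382 (adjusted p = 0.059). Estrogen raised it in oocyte-free complexes by 1.82 ± 0.382 (adjusted p = 0.00576), with overlapping groups, and its value in intact complexes was -1.31 ± 0.382 (adjusted p = 0.0531). A dimmer probe set of Col11a1 was called lower with estrogen in intact complexes (means of 5.99 without and 4.86 with it). It was also called lower in cocultures (7.37 and 5.83). Col12a1, coding for a collagen that sits on fibril surfaces, did not pass in any comparison at its brightest probe set. A second probe set, picked out after its values were seen, read 3.94, 4.53 and 4.38 in intact complexes, 8.30, 7.52 and 7.45 in oocyte-free complexes and 5.20, 4.90 and 5.13 in cocultures. It rose by 3.47 ± 0.37 on removal without estrogen and by 1.71 ± 0.37 with it (adjusted p = 1.73e-06 and 0.00229), so that the 2 probe sets of Col12a1 disagree.

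Of 8 tested elastic fibre genes, 3 rose and 4 fell on oocyte removal without estrogen, and 3 rose and 3 fell with it, 87.5% and 75% against 38.7% and 30.2% of all genes. Elastic fibres have an elastin core on a scaffold of fibrillin microfibrils, which fibulins link and which lysyl oxidases crosslink. Elastin itself (Eln) had a change of 0.40 ± 0.13 (adjusted p = 0.0224), which did not pass without sample 1, 13 or 14 (0.26 to 0.38, adjusted p from 0.0635 to 0.085) or with array series as a term (0.33, adjusted p = 0.188). A second probe set gave 0.24 ± 0.127 (adjusted p = 0.163).

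Fbln2 (1423407_a_at), coding for fibulin 2, read 5.61, 5.49 and 5.05 in intact complexes, 8.06, 7.78 and 7.19 in oocyte-free complexes and 4.58, 5.59 and 5.37 in cocultures. With estrogen it stood at 5.72, 5.83 and 6.01 in intact complexes, 9.33, 9.13 and 9.34 in oocyte-free complexes and 6.16, 5.44 and 6.36 in cocultures. The oocyte-free samples were the highest in both cases, and those with estrogen lay above those without. Fbln2 rose by 2.29 ± 0.274 (adjusted p = 4.19e-06) on removal without estrogen and by 3.41 ± 0.274 (adjusted p = 5.18e-08) with it, 10.7-fold. Fibulin 5 (Fbln5, 1416164_at), which ties elastin to microfibrils and to integrins, moved against fibulin 2. Its values were 6.90, 7.30 and 6.94 in intact complexes, 5.37, 5.11 and 5.88 in oocyte-free complexes and 6.97, 6.78 and 7.33 in cocultures, and with estrogen 6.65, 5.85 and 6.11 in intact complexes, 5.73, 5.26 and 4.88 in oocyte-free complexes and 6.76, 6.50 and 6.82 in cocultures. The oocyte-free samples were the lowest, and the margin with estrogen was narrow. Fbln5 fell by 1.59 ± 0.248 (adjusted p = 6.74e-05) without estrogen. Its change with estrogen, -0.91 ± 0.248 (adjusted p = 0.00925), did not pass without sample 4 or 17 (-0.69 and -0.71, adjusted p = 0.0649 and 0.0563).

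Loxl1 (1451978_at), a lysyl oxidase relative that crosslinks elastin, had values of 7.31, 7.72 and 7.00 in intact complexes, 4.21, 5.06 and 4.63 in oocyte-free complexes and 7.46, 6.81 and 6.87 in cocultures. With estrogen it read 7.88, 7.38 and 7.44 in intact complexes, 3.86, 3.75 and 3.66 in oocyte-free complexes and 7.15, 7.08 and 7.18 in cocultures. Every oocyte-free sample lay below every sample with oocytes, and those with estrogen were the lowest. Loxl1 passed the brightness filter through the 12 samples with oocytes, and the oocyte-free ones lay below the array median, so no fold is given. Loxl1 fell by 2.71 ± 0.227 (adjusted p = 6.23e-08) without estrogen and by 3.81 ± 0.227 (adjusted p = 1.59e-09) with it. Its second probe set moved far less, by -0.13 ± 0.156 and -0.55 ± 0.156 (adjusted p = 0.549 and 0.0144). Lox had values of 0.38 ± 0.35 (adjusted p = 0.425) without and 1.17 ± 0.35 (adjusted p = 0.0164) with estrogen, the second not passing without sample 17 (0.75, adjusted p = 0.109), while another probe set of Lox fell by 1.57 ± 0.44 without estrogen (adjusted p = 0.0103). The microfibril gene Mfap2 fell by 1.31 ± 0.239 (adjusted p = 0.000316) without and by 1.44 ± 0.239 (adjusted p = 0.000168) with estrogen, and Fbln1 fell by 1.26 ± 0.307 (adjusted p = 0.00339) without estrogen. A second probe set of Mfap2 gave -0.31 ± 0.138 without estrogen (adjusted p = 0.089). Both further probe sets of Fbln1 did not pass, at -0.30 ± 0.329 and 0.11 ± 0.157 (adjusted p = 0.513 and 0.629), and the mean of its probe sets was -0.48 (adjusted p = 0.0654). With array series as a term the changes without estrogen were -0.51 for Mfap2 (adjusted p = 0.126) and -0.56 for Fbln1 (adjusted p = 0.252).

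Fbn2 (1454830_at), coding for fibrillin 2, a microfibril protein best known from the embryo, was the only gene of the 39 that estrogen raised in all 3 culture types, as it did 0.62% of all tested genes. Its values were 5.76, 6.26 and 6.55 in intact complexes, 7.80, 7.23 and 7.13 in oocyte-free complexes and 7.00, 6.38 and 7.16 in cocultures without estrogen. The values with estrogen were 9.13, 9.23 and 9.38 in intact complexes, 11.50, 11.11 and 10.87 in oocyte-free complexes and 9.36, 9.71 and 9.84 in cocultures. All 9 samples with estrogen lay above all 9 without. Fbn2 rose by 3.06 ± 0.245 (adjusted p = 5.09e-07) in intact complexes, 8.32-fold, by 2.79 ± 0.245 (adjusted p = 1.38e-06) in cocultures and by 3.77 ± 0.245 (adjusted p = 3.28e-08) in oocyte-free complexes. It also rose by 1.20 ± 0.245 (adjusted p = 0.000852) on oocyte removal without estrogen and by 1.91 ± 0.245 (adjusted p = 1.14e-05) with it. A second probe set rose by 3.39 ± 0.322 with estrogen in intact complexes (adjusted p = 4.71e-06).

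**Figure D2:**
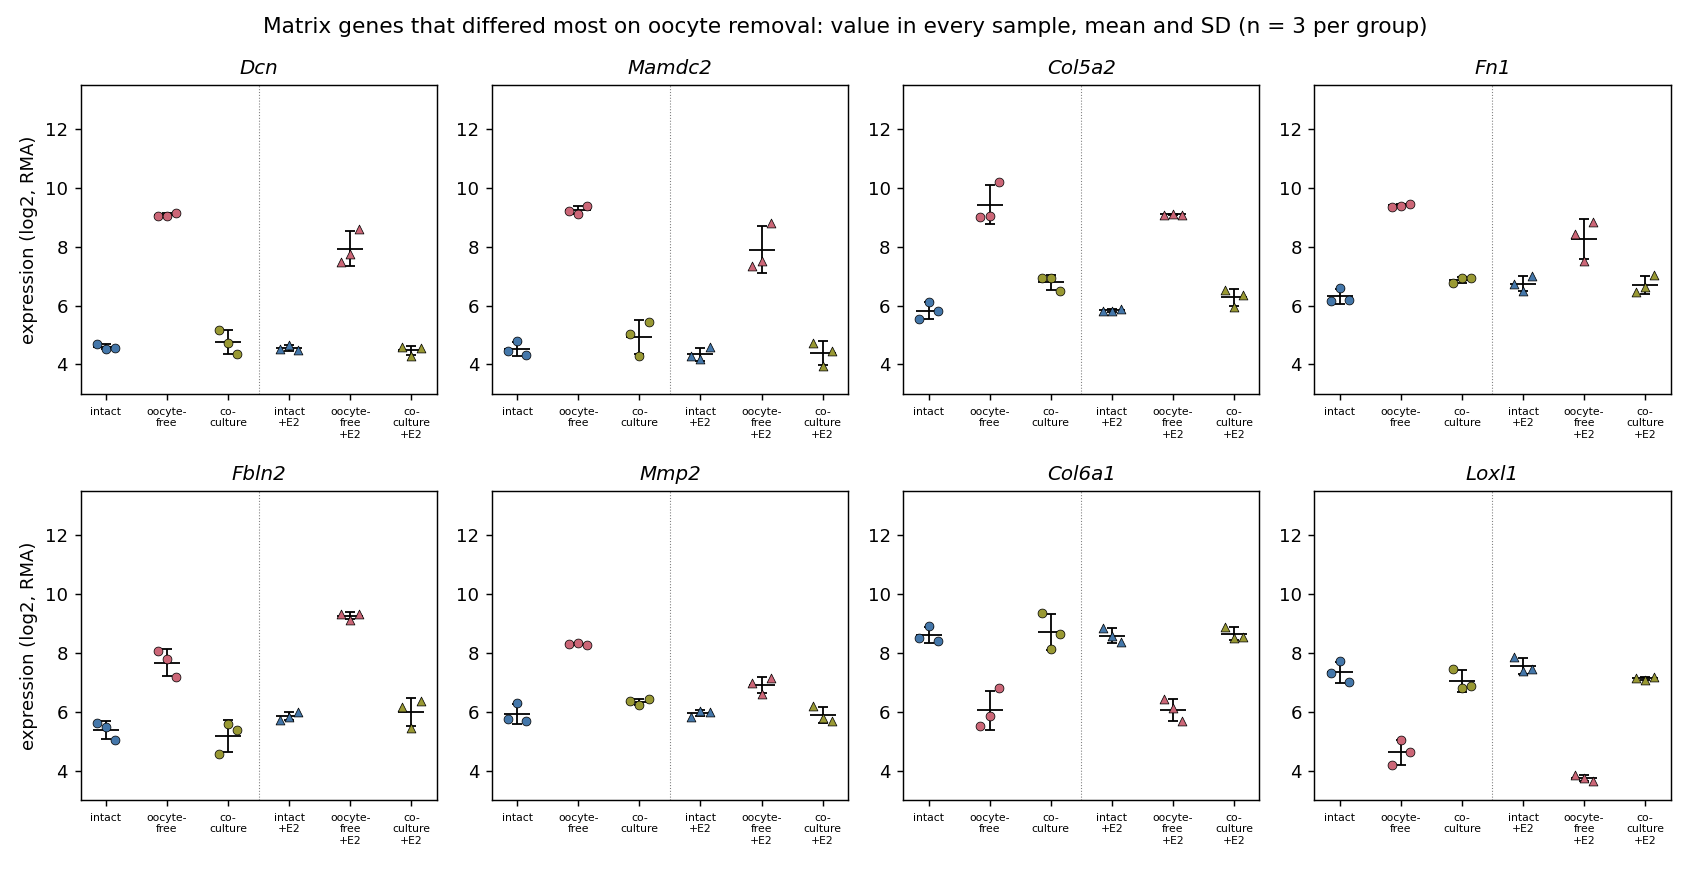
Log2 expression (vertical axis) of 8 matrix genes in every sample of the 6 groups (horizontal axis, 3 points each), with the group mean (long bar) and SD (error bar). Dcn, Mamdc2, Col5a2, Fn1, Fbln2 and Mmp2 are highest in the oocyte-free groups, and Col6a1 and Loxl1 are lowest there, apart from the intact complexes and cocultures.

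Of the 3 tested proteoglycans, 1 rose and 1 fell on removal without estrogen, and 1 rose and 0 fell with it (66.7% and 33.3%, against 38.7% and 30.2% of all genes). Dcn (1449368_at), coding for decorin, a small leucine-rich proteoglycan that coats collagen fibrils and binds TGF-beta, read 4.69, 4.54 and 4.57 in intact complexes, 9.05, 9.03 and 9.15 in oocyte-free complexes and 5.17, 4.73 and 4.36 in cocultures. With estrogen it stood at 4.51, 4.66 and 4.49 in intact complexes, 7.47, 7.74 and 8.61 in oocyte-free complexes and 4.59, 4.29 and 4.55 in cocultures. The oocyte-free samples stood alone, and in all 12 samples with oocytes Dcn was below the array median. It passed the brightness filter through the oocyte-free arrays alone. Dcn rose by 4.48 ± 0.233 (adjusted p = 2.27e-10) on removal without estrogen and by 3.39 ± 0.233 (adjusted p = 7.87e-09) with it, and no fold is given against such dim groups. Bgn (1416405_at), coding for biglycan, the nearest relative of decorin, read 7.83, 7.76 and 7.24 in intact complexes, 7.30, 7.52 and 7.35 in oocyte-free complexes and 8.26, 7.20 and 7.82 in cocultures. With estrogen it read 6.25, 6.06 and 6.04 in intact complexes, 6.13, 6.17 and 5.96 in oocyte-free complexes and 6.23, 6.17 and 6.29 in cocultures. All samples with estrogen lay below all without, whatever the culture. Bgn fell by 1.49 ± 0.209 (adjusted p = 0.000183) in intact complexes, by 1.53 ± 0.209 (adjusted p = 0.000149) in cocultures and by 1.30 ± 0.209 (adjusted p = 0.000767) in oocyte-free complexes, and its changes on removal were -0.22 ± 0.209 (adjusted p = 0.441) and -0.03 ± 0.209 (adjusted p = 0.936).

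Cspg4 (1423341_at), coding for the transmembrane chondroitin sulphate proteoglycan NG2, stood high where the oocyte was present and estrogen was absent. Its values were 9.60, 9.19 and 9.28 in intact complexes, 6.81, 7.49 and 6.97 in oocyte-free complexes and 9.50, 8.88 and 9.19 in cocultures. The values with estrogen were 6.14, 5.94 and 6.51 in intact complexes, 5.81, 5.61 and 6.31 in oocyte-free complexes and 6.47, 6.35 and 5.74 in cocultures. The 6 samples with oocytes and without estrogen lay above the other 12, and the oocyte-free samples without estrogen came next. Cspg4 fell by 2.27 ± 0.244 (adjusted p = 1.26e-06) on removal without estrogen, 4.81-fold, where the change with estrogen was -0.29 ± 0.244 (adjusted p = 0.421). It fell by 3.16 ± 0.244 (adjusted p = 4.82e-07) with estrogen in intact complexes, 8.94-fold, by 3.00 ± 0.244 (adjusted p = 7.15e-07) in cocultures and by 1.18 ± 0.244 (adjusted p = 0.00519) in oocyte-free complexes. A second probe set fell by 0.98 ± 0.23 on removal without estrogen and by 1.51 ± 0.23 with estrogen in intact complexes (adjusted p = 0.00309 and 0.000577).

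The 250 bases before the start of Cspg4 are shown because it changed with both the oocyte and estrogen. They lie at chr9:56864854-56865103 on the + strand (RefSeq, GRCm38.p6), with matches to CAGACAG, which holds the CAGA letters of a SMAD-binding element, and to GGGCGG (here CCGCCC) in capitals.
Cspg4: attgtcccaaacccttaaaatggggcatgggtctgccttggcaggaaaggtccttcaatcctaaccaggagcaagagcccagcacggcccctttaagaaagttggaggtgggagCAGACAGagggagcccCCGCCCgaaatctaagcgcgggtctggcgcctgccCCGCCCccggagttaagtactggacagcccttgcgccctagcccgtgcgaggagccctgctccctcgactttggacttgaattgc

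RefSeq windows of 300 bases, 250 before to 50 after a start, were at hand for 28 of the 46 genes. Both strands were searched for 6 motifs. The estrogen response element (GGTCA and TGACC with any 3 bases between) was in none of the 28 and in 0.07% of all 32851 windows, and the SMAD palindrome GTCTAGAC was in none and in 0.213%. CAGACAG was in 4 of the 28 genes (Cspg4, Fbln1, Col1a2 and Col3a1) and in 7.73% of windows, and TGAGTCA in Col6a1 alone and in 5.2%. GGGCGG was in 23 of the 28, in 35.7% of all windows and in 68.1% of tested genes with a window, and TATAAA was in Col3a1 and in 13.6% of windows. A match describes the letters of the window and nothing more.

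The 3 tested adhesive and matricellular genes (Mamdc2, Fn1 and Sparc) rose on oocyte removal without and with estrogen, where 18.0% and 12.9% of all tested genes rose. Of these, Mamdc2 passed the brightness filter through the oocyte-free arrays alone. Mamdc2 (1453152_at), coding for a secreted protein with MAM domains, read 4.45, 4.78 and 4.32 in intact complexes, 9.20, 9.13 and 9.39 in oocyte-free complexes and 5.04, 4.30 and 5.45 in cocultures. With estrogen it stood at 4.28, 4.17 and 4.59 in intact complexes, 7.35, 7.52 and 8.82 in oocyte-free complexes and 4.74, 3.95 and 4.47 in cocultures. The oocyte-free samples stood alone, and the others lay below the array median. Mamdc2 rose by 4.72 ± 0.33 (adjusted p = 7.75e-09) without estrogen and by 3.55 ± 0.33 (adjusted p = 2.7e-07) with it, and no fold is given against such dim groups. Fn1 (1426642_at), coding for fibronectin, which links collagen to integrins, read 6.16, 6.60 and 6.18 in intact complexes, 9.36, 9.39 and 9.47 in oocyte-free complexes and 6.76, 6.93 and 6.93 in cocultures. With estrogen it read 6.74, 6.49 and 7.01 in intact complexes, 8.43, 7.52 and 8.85 in oocyte-free complexes and 6.46, 6.62 and 7.04 in cocultures. The oocyte-free samples were the highest, more tightly grouped without estrogen than with it. Fn1 rose by 3.09 ± 0.253 (adjusted p = 4.95e-08) without estrogen, 8.53-fold, and by 1.52 ± 0.253 (adjusted p = 0.000174) with it, 2.87-fold.

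Sparc (1416589_at), coding for osteonectin, a collagen binding protein that loosens cell contacts, changed with both the oocyte and estrogen. Its values were 11.34, 11.57 and 11.24 in intact complexes, 12.36, 12.27 and 11.75 in oocyte-free complexes and 11.72, 11.31 and 11.45 in cocultures, and with estrogen 9.94, 9.46 and 9.48 in intact complexes, 11.52, 11.25 and 11.23 in oocyte-free complexes and 10.38, 9.85 and 9.44 in cocultures. In each case the oocyte-free samples were the highest, and those with estrogen overlapped the intact complexes without it. Sparc rose by 1.71 ± 0.222 (adjusted p = 1.38e-05) on removal with estrogen. Its smaller change without estrogen, 0.74 ± 0.222 (adjusted p = 0.0132), did not pass without sample 13 or 2A (0.67 and 0.63, adjusted p = 0.0531 and 0.0577). Sparc fell by 1.76 ± 0.222 (adjusted p = 6.75e-05) with estrogen in intact complexes and by 1.60 ± 0.222 (adjusted p = 0.00017) in cocultures, with no overlap. One further probe set of Sparc did not pass on removal (-0.00 ± 0.191 without estrogen), while another rose by 1.61 ± 0.277 (adjusted p = 0.000234).

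Of 5 genes of matrix turnover, proteases and inhibitors, 4 rose and 0 fell on removal without estrogen, and 3 rose and 1 fell with it, 80% in both cases against 38.7% and 30.2% of all genes. Mmp2 (1439364_a_at), coding for gelatinase A, which cuts type IV collagen, read 5.76, 6.31 and 5.69 in intact complexes, 8.29, 8.33 and 8.27 in oocyte-free complexes and 6.36, 6.23 and 6.43 in cocultures. The values with estrogen were 5.83, 6.02 and 6.00 in intact complexes, 6.97, 6.62 and 7.15 in oocyte-free complexes and 6.21, 5.78 and 5.69 in cocultures. The oocyte-free samples were the highest, and those without estrogen lay above those with it. Mmp2 rose by 2.38 ± 0.181 (adjusted p = 2.07e-08) without estrogen, 5.19-fold, and by 0.96 ± 0.181 (adjusted p = 0.000539) with it, 1.95-fold. Its second probe set gave 0.70 ± 0.258 with estrogen (adjusted p = 0.0555). Mmp14 (1448383_at), coding for the membrane-bound protease that activates gelatinase A, read 8.04, 8.08 and 7.67 in intact complexes, 9.44, 9.24 and 8.55 in oocyte-free complexes and 8.66, 7.69 and 8.34 in cocultures. With estrogen it stood at 7.76, 7.53 and 7.52 in intact complexes, 9.58, 9.21 and 9.21 in oocyte-free complexes and 8.55, 7.83 and 8.02 in cocultures. Oocyte-free and intact samples did not overlap, while sample 3 of the cocultures lay among the oocyte-free ones. Mmp14 rose by 1.15 ± 0.257 (adjusted p = 0.0018) and by 1.73 ± 0.257 (adjusted p = 5.62e-05) on removal. Its fall with added oocytes without estrogen, -0.85 ± 0.257 (adjusted p = 0.0169), did not pass without sample 9, 2A or 8 (-0.58 to -0.76, adjusted p from 0.0605 to 0.0989).

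Timp2 (1460287_at), the inhibitor that also takes part in the activation of gelatinase A, read 9.56, 9.67 and 9.16 in intact complexes, 11.44, 11.24 and 11.12 in oocyte-free complexes and 9.80, 9.45 and 9.63 in cocultures. With estrogen it read 9.31, 8.91 and 9.32 in intact complexes, 11.30, 10.94 and 10.50 in oocyte-free complexes and 9.63, 8.68 and 9.40 in cocultures. The oocyte-free samples lay above all others in both cases. Timp2 rose by 1.80 ± 0.237 (adjusted p = 1.19e-05) without and by 1.73 ± 0.237 (adjusted p = 2.29e-05) with estrogen, while 1 of its other probe sets gave 0.40 ± 0.163 with estrogen (adjusted p = 0.079). Timp3 (1449335_at), the inhibitor that binds to the matrix, read 5.74, 5.60 and 5.68 in intact complexes, 6.51, 6.49 and 7.03 in oocyte-free complexes and 5.81, 5.29 and 5.46 in cocultures. The values with estrogen were 5.50, 5.83 and 5.98 in intact complexes, 6.65, 6.14 and 5.89 in oocyte-free complexes and 5.62, 5.42 and 5.54 in cocultures. The oocyte-free samples were clearly highest without estrogen and overlapped the intact ones with it. Timp3 rose by 1.00 ± 0.202 (adjusted p = 0.000737) without estrogen, and the change with it was 0.46 ± 0.202 (adjusted p = 0.0991).

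Timp1 (1460227_at), a soluble inhibitor, was lower with estrogen. Its values were 9.51, 9.52 and 9.70 in intact complexes, 9.62, 9.61 and 9.37 in oocyte-free complexes and 9.35, 9.61 and 9.69 in cocultures. With estrogen it stood at 8.61, 8.65 and 8.57 in intact complexes, 8.12, 8.34 and 7.88 in oocyte-free complexes and 8.59, 8.05 and 8.20 in cocultures. All samples with estrogen lay below all without. Timp1 fell by 0.97 ± 0.16 (adjusted p = 0.000914) in intact complexes, by 1.27 ± 0.16 (adjusted p = 6.55e-05) in cocultures and by 1.42 ± 0.16 (adjusted p = 2.45e-05) in oocyte-free complexes. Its change on removal without estrogen was -0.04 ± 0.16 (adjusted p = 0.858), and that with estrogen, -0.50 ± 0.16 (adjusted p = 0.0253), did not pass without sample 4, 5, 10, 16 or 17 (-0.38 to -0.52, adjusted p from 0.0541 to 0.122) or within the first array series (-0.38, adjusted p = 0.0998).

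Cocultures were also set against intact complexes. Of the 39 genes, 0 differed without estrogen and 0 with it, where 0.00816% and 0% of all tested genes did. An unadjusted limma p under 0.05 was held by 733 of the 12252 tested genes without estrogen and by 346 with it. Some genes reach such a p even where none differs, so these numbers count no differences. With array weights 1 member passed in each case. These were Col5a2 without estrogen (adjusted p = 0.0306) and Col11a1 with it (adjusted p = 0.0267). How many of all tested genes passed with array weights is not given here. In the fit without weights the values were 0.96 ± 0.251 (adjusted p = 0.457) for Col5a2 and 1.06 ± 0.382 (adjusted p = 1) for Col11a1. A comparison that does not pass does not show that the 2 cultures are alike.

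Estrogen lowered more of the matrix genes than it raised. In intact complexes 2 of the 39 rose and 8 fell, where 5.79% of all tested genes changed, 3.45% up and 2.33% down. In cocultures 2 rose and 8 fell (all genes 4.65%, 2.32% up and 2.33% down), and they were the same 10 genes. In oocyte-free complexes 3 rose and 13 fell (all genes 9.64%, 6.02% up and 3.62% down). At the probe sets used, Bgn, Col4a1, Col4a2, Cspg4, Lama1, Sparc and Timp1 fell in all 3 culture types, as did 0.457% of all tested genes. Col4a2 passed the brightness filter through the samples without estrogen alone, so its fall was in part built in and it counts in these numbers. The probe sets of Sparc disagree, with 2 of 3 called in each culture type. Those of Bgn disagree in intact complexes (2 of 3 called) and those of Cspg4 in oocyte-free complexes (1 of 2). By class, estrogen lowered 4 of 14 basement membrane genes and raised 1 in intact complexes and lowered 2 of 3 proteoglycans. At the probe sets used, 0 of the 6 interstitial collagens were called with estrogen in intact complexes and 0 in cocultures. In oocyte-free complexes 1 was called, Col11a1, which rose. Among those 6 collagens the limma adjusted p in intact complexes was lowest for Col11a1, at 0.0531. A second probe set of Col11a1 was called lower with estrogen in intact complexes and in cocultures, so that its probe sets disagree. The estrogen effects in intact and in oocyte-free complexes, which share no array, had an r of 0.604 and a rho of 0.386 over the 39 genes, with 26 of the same sign, next to an r of 0.342 over all tested genes.

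In oocyte-free complexes estrogen also lowered Agrn, Dcn, Fn1, Mamdc2 and Mmp2, which removal without estrogen had raised. Both comparisons share the oocyte-free arrays without estrogen, with opposite sign, so that a rise followed by a fall is no independent result. At the probe sets used, 8 genes changed in oocyte-free complexes without a call in intact complexes or cocultures (Agrn, Dcn, Fn1, Loxl1, Mamdc2 and Mmp2 down, Col11a1 and Fbln2 up). This pattern of calls was held by 8 of the 39 genes and by 7.61% of all tested genes. Dcn and Mamdc2 passed the brightness filter through the oocyte-free arrays alone and lay below the array median elsewhere. For them the pattern was in part built in by the filter. The fall of Loxl1 lay wholly below the array median. A second probe set of Col11a1 was called with estrogen in intact complexes and in cocultures. Whether the estrogen effect differed between cultures was tested by the interactions. Agrn, Col11a1, Fn1 and Mmp2 passed that against intact complexes, and Col11a1 also that against cocultures, while Dcn, Fbln2, Loxl1 and Mamdc2 passed neither. Mmp2 fell by 1.38 ± 0.181 (adjusted p = 0.000104) and Fbln2 rose by 1.59 ± 0.274 (adjusted p = 0.00137). Dcn fell by 1.14 ± 0.233 (adjusted p = 0.005) and Fn1 fell by 1.14 ± 0.253 (adjusted p = 0.00839), but with array series as a term these were -0.81 (adjusted p = 0.075) and -0.82 (adjusted p = 0.116). The calls of Dcn, Agrn, Mamdc2 and Loxl1 were lost without samples 5 and 14, a run added to the planned ones. Their values were then -0.86, -0.81, -0.99 and -0.93 (adjusted p = 0.0653, 0.0698, 0.155 and 0.0736). The falls of Agrn, -0.90 ± 0.202 (adjusted p = 0.00934), Mamdc2, -1.34 ± 0.33 (adjusted p = 0.0152), and Loxl1, -0.88 ± 0.227 (adjusted p = 0.0207), were each lost without 1 sample, and those of Agrn and Mamdc2 also with array series as a term (-0.81 and -1.20, adjusted p = 0.0553 and 0.0919). Without sample 5 they were -0.80 for Agrn, -1.07 for Mamdc2 and -0.93 for Loxl1 (adjusted p = 0.0587, 0.1 and 0.0544). Without sample 11 that of Mamdc2 was -1.16 (adjusted p = 0.0641) and that of Loxl1 -0.87 (adjusted p = 0.0516), and without sample 8 that of Loxl1 was -0.66 (adjusted p = 0.096). Sparc in these cultures, -0.79 ± 0.222 (adjusted p = 0.0312), did not pass without sample 5, 11, 2A, 8 or 17 (-0.68 to -0.89, adjusted p from 0.0572 to 0.096). Where sample 5 was placed as its source name says, 0 of the 39 genes and 0 of all tested genes changed with estrogen in oocyte-free complexes. An unadjusted limma p under 0.05, which is no call, was held by 894 of the 12252 tested genes.

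**Figure D3:**
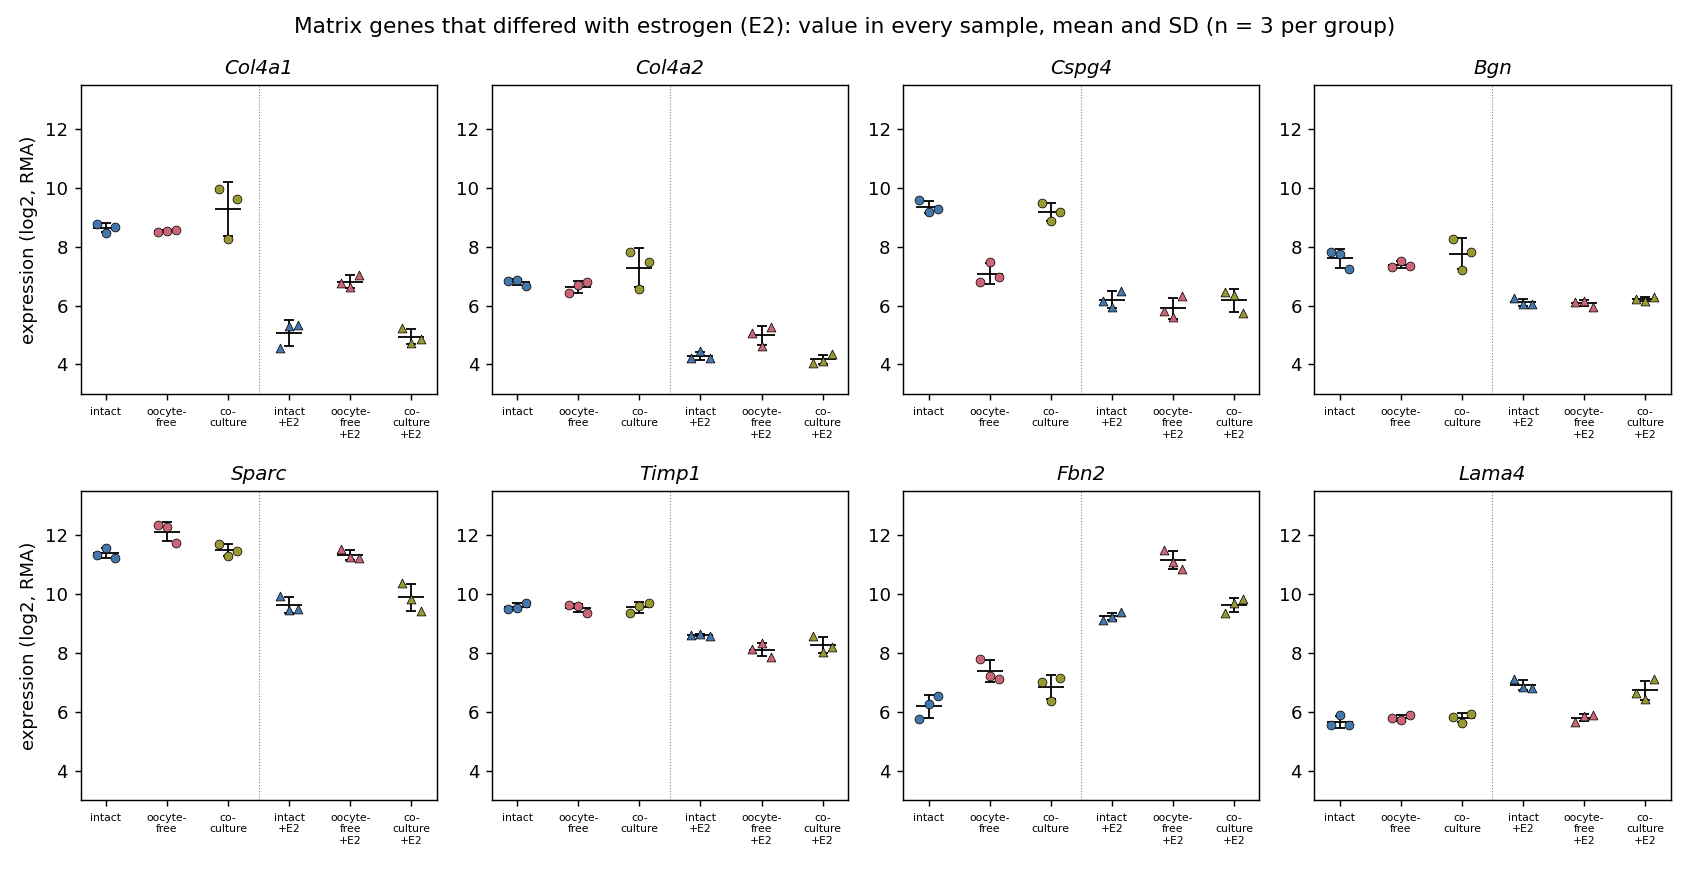
Log2 expression (vertical axis) of 8 matrix genes in every sample of the 6 groups (horizontal axis, 3 points each), with the group mean (long bar) and SD (error bar). Col4a1, Col4a2, Bgn and Timp1 are lower in each group with estrogen, Fbn2 is higher, and Lama4 stands high only where estrogen and an oocyte are both present.

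Whether the effect of removal differed with estrogen was tested as an interaction. It passed for 7 of the 39 genes, 3 positive and 4 negative, where 3.21% of all tested genes passed (1.79% positive and 1.42% negative). It is the change on removal with estrogen minus that without. The value was 3.12 ± 0.54 (adjusted p = 0.00268) for Col11a1, 1.98 ± 0.346 (adjusted p = 0.00276) for Cspg4 and 1.86 ± 0.448 (adjusted p = 0.0266) for Col4a1. On the negative side it was -1.57 ± 0.358 (adjusted p = 0.0189) for Fn1, -1.41 ± 0.256 (adjusted p = 0.00357) for Mmp2, -1.26 ± 0.286 (adjusted p = 0.0189) for Agrn and -1.24 ± 0.237 (adjusted p = 0.00559) for Lama4. Those of Col4a1, Agrn and Fn1 were close to the limit. That of Col4a1 was lost without sample 1, 4, 5, 8 or 13 (1.60 to 1.88, adjusted p from 0.055 to 0.0832), and with array series as a term it was 1.46 (adjusted p = 0.0849). That of Agrn was lost without sample 1, 4, 5 or 11 (-1.13 to -1.21, adjusted p from 0.053 to 0.0591) or sample 10 (adjusted p = 0.0627), and without sample 1, 13 or 16 that of Fn1 (-1.44 to -1.51, adjusted p from 0.0532 to 0.0607). That of Fn1 was -1.25 (adjusted p = 0.0848) with array series as a term and -0.81 (adjusted p = 0.0619) as the mean of its probe sets. The count of matrix genes fell to 4 without sample 1, and the share of all tested genes in that run is not given here.

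For added oocytes the interaction passed for 6 genes, 1 positive and 5 negative (2.78% of all genes, 0.890% positive and 1.89% negative). It was -2.61 ± 0.448 (adjusted p = 0.00273) for Col4a1, -2.47 ± 0.54 (adjusted p = 0.0155) for Col11a1, -1.82 ± 0.346 (adjusted p = 0.00602) for Cspg4, -1.47 ± 0.344 (adjusted p = 0.0249) for Col4a2, -1.16 ± 0.29 (adjusted p = 0.037) for Nid1 and 0.92 ± 0.237 (adjusted p = 0.0445) for Lama4. Those of Col4a1 and Cspg4 passed with each single sample left out. That of Lama4 was lost on leaving out any of 15 samples (0.73 to 0.99, adjusted p from 0.0528 to 0.127) and that of Nid1 any of 9 (-0.91 to -1.17, adjusted p from 0.0508 to 0.109). That of Col4a2 was lost without sample 2A, 3, 5, 6, 12 or 15 (to no nearer 0 than -1.20, adjusted p from 0.0589 to 0.0794), and that of Col11a1 without 3, 5 or 6 (-2.19 to -2.35, adjusted p from 0.0506 to 0.0526). The count of matrix genes fell to 2 without sample 3, 5 or 6, and to 3 without sample 15 or 2A. For these runs too, the share of all tested genes is not given here. Both interactions share the oocyte-free arrays. The smooth muscle marker Acta2 moved in the same comparisons, with an interaction of 4.88 ± 0.445 for removal (adjusted p = 8.21e-06) and -4.13 ± 0.445 for added oocytes (adjusted p = 4.18e-05), and its part in these results was not tested.

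**Figure D4:**
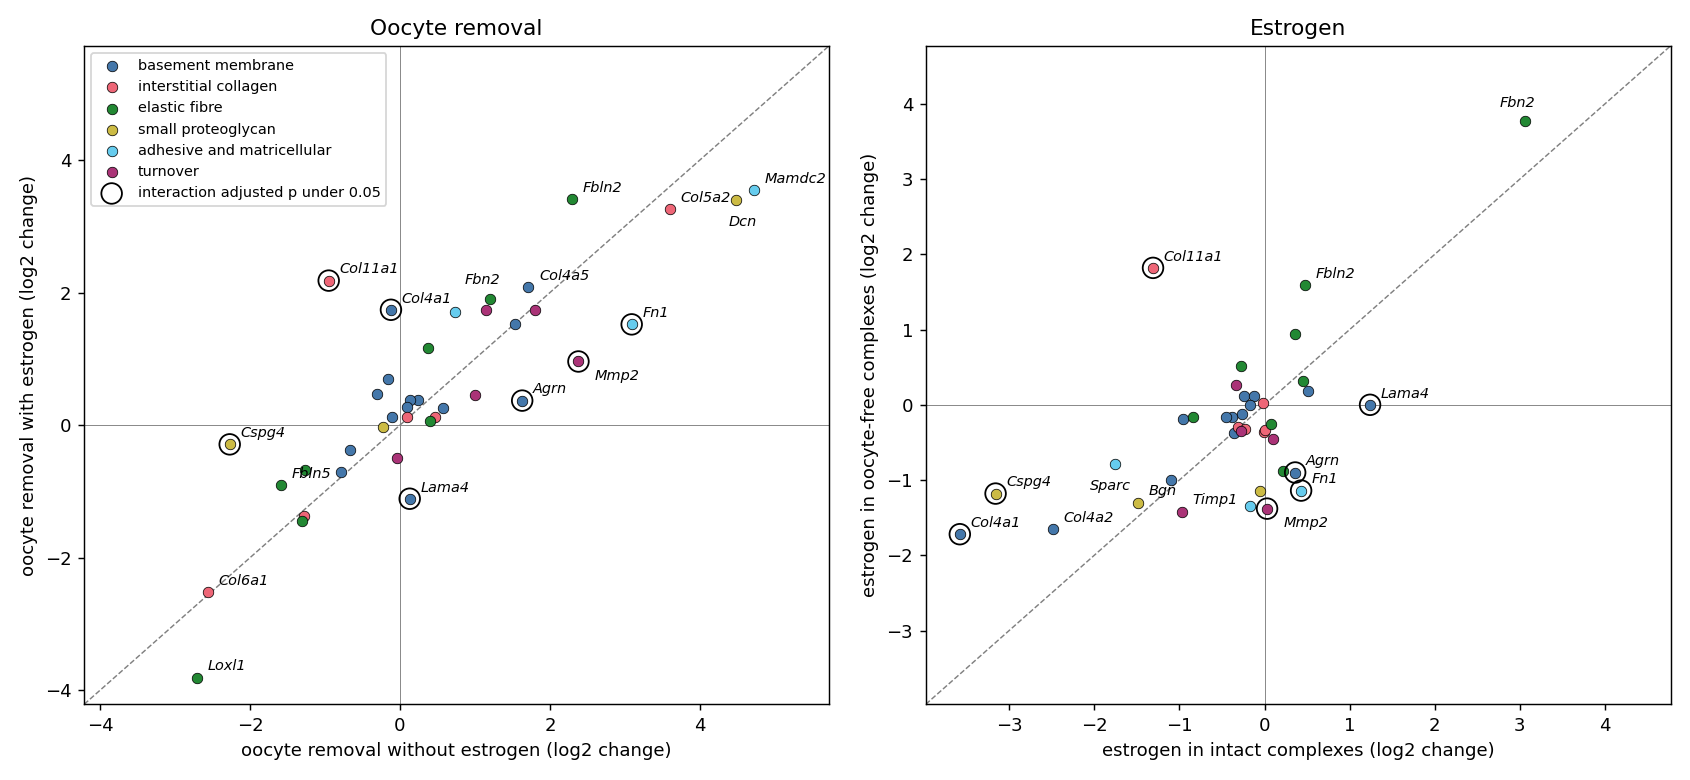
Log2 change of the 39 tested genes on oocyte removal without (horizontal) and with estrogen (vertical) on the left, and with estrogen in intact (horizontal) and oocyte-free complexes (vertical) on the right, coloured by class, with equal values on the dashed line. Rings mark the 7 genes whose removal interaction passed, with Col11a1, Col4a1 and Cspg4 above the line on the left and Fn1, Mmp2, Agrn and Lama4 below it.

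Dcn with Lum and Col3a1 with Col5a2 are also neighbours, but Lum and Col3a1 were too dim to be tested. Whether they follow their neighbours cannot be read from these values. Dcn and Lum, adjacent on chromosome 10, code for related small proteoglycans. While Dcn read 9.05, 9.03 and 9.15 in oocyte-free complexes, Lum (lumican) read 4.19, 4.23 and 5.26 there and 3.75 to 4.21 in all samples of the 4 groups with oocytes, below the array median throughout. Col3a1 and Col5a2 are adjacent on chromosome 1. Col5a2 read 9.02, 9.06 and 10.19 in oocyte-free complexes, and Col3a1 read 3.02, 3.26 and 3.11, within its range of 2.93 to 3.33 over all 18 samples. Col4a1 with Col4a2, and Col6a1 with Col6a2, moved together as described.

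The other genes not tested were dim in all 18 samples. Col15a1, coding for a basement membrane zone collagen, lay between 4.59 and 5.23. Col1a1 lay between 4.64 and 5.36 and Col1a2 between 4.93 and 5.56. Mfap5, a microfibril gene, lay between 3.90 and 4.94, and the Sparc relative Sparcl1 between 3.35 and 4.12. The array medians lay between 5.51 and 5.71. A dim probe set does not show that a gene is not expressed.

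Other genes of matrix assembly were counted on removal without estrogen. In that comparison 18.0% of all tested genes rose and 20.7% fell. Of 9 tested further basement membrane genes, 4 rose and 0 fell (44.4% called), led by netrin 4 (Ntn4, 2.25 ± 0.272), Tinagl1 (2.23 ± 0.301) and the peroxidasin gene Pxdn (1.36 ± 0.212). Of 17 genes of collagen processing, 4 rose and 6 fell (58.8%). The procollagen protease Bmp1 rose by 2.03 ± 0.301 and its enhancer Pcolce by 2.13 ± 0.297, while the prolyl hydroxylase P4ha2 fell by 2.10 ± 0.354. Of 19 matrix receptors, 7 rose and 7 fell (73.7%), among them the syndecans Sdc4, which rose by 1.71 ± 0.165, and Sdc1, which fell by 1.62 ± 0.367, and the integrin Itga9, which fell by 2.30 ± 0.199. Of 17 other proteases and inhibitors, 9 rose and 0 fell (52.9%), led by tissue plasminogen activator (Plat, 3.78 ± 0.287), cathepsin B (Ctsb, 2.45 ± 0.294) and Mmp11 (1.80 ± 0.269). With estrogen in intact complexes, 4 of the 19 receptors fell and 1 rose, and 1 of the 9 further basement membrane genes fell and 0 rose. Of the 17 genes of collagen processing 2 rose and 1 fell, and of the 17 other proteases and inhibitors 2 rose and 2 fell. Of all tested genes 3.45% rose and 2.33% fell in that comparison.

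Markers of the cells present were read beside these results. Of 12 granulosa and cumulus markers, 11 had a probe set and all 11 were tested. On removal without estrogen 9 fell and 1 rose, and their mean log2 level was 8.41 to 8.54 in the oocyte-free samples against 10.18 to 10.29 in intact ones. With estrogen in intact complexes 3 rose, and the mean level was 10.83 to 11.02. Of 10 theca and stroma markers, 6 were tested. Their mean lay between 6.24 and 6.98 in all samples, 0 rose and 2 fell on removal without estrogen, and Tcf21 was below the array median throughout. The mean was 6.75 to 6.83 in intact complexes and 6.39 to 6.51 with estrogen. Estrogen raised 0 and lowered 2 of the 6 in intact complexes and in cocultures, where 2.33% of all tested genes fell in each. In oocyte-free complexes 1 rose and 1 fell. Each interaction passed for 3 of the 6 (all genes 3.21% and 2.78%). Of 6 smooth muscle markers, 3 were tested, with Myh11, Cnn1 and Actg2 below the median on every array. Their mean level was 6.37 to 6.58 in intact complexes and 5.31 to 5.46 with estrogen, where Acta2 fell by 3.34 ± 0.315 and Tagln by 1.65 ± 0.254. Of 8 endothelial markers, Pecam1, Cdh5, Tek, Vwf, Emcn and Tie1 were below the median on every array, and the mean of the list stayed between 4.29 and 4.69. Of the blood and macrophage markers, Ptprc, Adgre1 and Hba-a1 were below it on every array. Of 11 oocyte markers, 3 were tested and 0 changed on removal, with a mean level of 4.84 to 5.75 over all samples. The part of the granulosa, theca and stroma, and smooth muscle markers in the matrix results was not tested.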

How the data were processed

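The 18 samples were measured on Affymetrix mouse arrays, and total RNA was amplified in a pair of rounds, per the labels' protocols. The authors deposited log2 values, and the submitters' processing notes name RMA and Affymetrix Expression Console 1.1. RMA fits all arrays together, and its background step narrows differences of dim probe sets. The number of arrays limits the precision. Of 45101 probe sets, 64 controls were left out, 34945 carried 1 gene symbol, 932 several and 9160 none. Of the symbols, 34741 were updated through their Entrez identifiers. Each gene was read from its probe set with the highest mean, and was tested where it lay above the array median on at least 3 arrays, with no offset added. One model of 6 group means was fitted by lmFit and eBayes (limma 3.58.1, R 4.3.3; 2-sided), with p-values adjusted by Benjamini-Hochberg over 12252 genes. The fit was tested on simulated data. Values in every sample are given for the up to 4 genes of each class with the largest called change on oocyte removal, and the up to 2 with the largest called change with estrogen. Other genes were named where their probe sets disagree or a rule on a result asks for them. The members, lists and rules were chosen with earlier results of these data known. Alternatives were each sample left out, array series, array weights, probe set rules, filters, a second normalization and the placing of sample 5. A run without samples 5 and 14 together was added to those planned. Samples that share a title round were checked for deviating together. In 3 of 15 pairs of groups the correlation was over 0.1 in each of 3 rounds, among them intact complexes and cocultures with estrogen, so the round as a block was run as an alternative and not used.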

Additional observations from a re-analysis of the deposited data

Results flagged for a closer look

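These genes stand out because an effect differed between cultures by a test of the difference itself, the limma interaction at an adjusted p under 0.05. For oocyte removal, the change with estrogen minus that without was 3.12 for Col11a1, 1.98 for Cspg4 and 1.86 for Col4a1 on the log2 scale. It was -1.57 for Fn1, -1.41 for Mmp2, -1.26 for Agrn and -1.24 for Lama4. For added oocytes it was -2.61 for Col4a1, -2.47 for Col11a1, -1.82 for Cspg4, -1.47 for Col4a2, -1.16 for Nid1 and 0.92 for Lama4. Groups of 3 samples were not searched for single outlying samples.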

How the results depend on the processing

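Of the 149 calls of a gene in a comparison, 97 passed under each alternative that was run and 119 with each single sample left out. The counts below are of matrix genes, and the share of all tested genes under the same setting is not given beside them. They describe the settings only. Whether a setting acted on the matrix genes more than on other genes cannot be read from them. With array weights, 1 gene passed between cocultures and intact complexes without estrogen and 1 with it, 16 passed for estrogen in intact complexes, 18 for estrogen in cocultures, 12 for the removal interaction and 16 for the added-oocyte interaction. With only the groups compared in the fit, 8 passed for estrogen in oocyte-free complexes and 2 for the added-oocyte interaction. With sample 5 counted as free of estrogen, 0, 2 and 2 passed for estrogen in oocyte-free complexes and the interactions of removal and of added oocytes. Leaving out 1 sample gave 23 to 26 genes for removal and 21 to 27 for added oocytes without estrogen, 21 to 26 for each with estrogen, and 0 to 0 between cocultures and intact complexes in both cases. It gave 10 to 12 for estrogen in intact complexes, 12 to 17 in oocyte-free complexes, 10 to 11 in cocultures, 4 to 9 for the removal interaction and 2 to 9 for the added-oocyte interaction. With array series as a term, 19 genes passed for removal without estrogen. Hspg2 changed sign on removal without estrogen as the mean of its probe sets, at 0.41 (limma adjusted p = 0.00602). With the title round as a replicate block, 25 and 24 genes passed for removal without and with estrogen, 8 for the removal interaction and 5 for that of added oocytes. Over 45 pairs of samples of 1 round the correlation of deviations had a median of -0.004. It was over 0.1 in each round for 3 of 15 pairs of groups, of which intact complexes with cocultures, both with estrogen (0.1642 to 0.3091), is a comparison made here, and with the block 0 genes passed there. The block ended the calls of Col11a1 with added oocytes and estrogen (-1.11, adjusted p = 0.0568) and of the added-oocyte interaction of Lama4 (0.92, adjusted p = 0.0577), and the removal interaction of Sparc passed with it (0.96, adjusted p = 0.0416).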
